A study of Mus musculus with 6 samples.

Results

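Pitx1, Tbx4, Tbx5, Shox2, Tbx2, Tbx3, Tbx15, Tbx1 and En1 are transcription factor genes known for laying out the limbs and the regions of the body. These 9 genes were chosen by name, with earlier results of the same libraries known, from 26644 genes listed in any deposited table, and all 9 were listed in every table. The tables annotate 6 of them as T-box genes and 3 (Pitx1, Shox2 and En1) as homeobox genes. Because they were chosen on their levels in these libraries, their values are a description and no test was made on them.

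RNA was sequenced from healing mouse skin that had been given either C-PC, the pigment protein phycocyanin of Spirulina, or no treatment. The groups were early C-PC, early control, middle C-PC, middle control, late C-PC and late control, with 1 library each and therefore no spread between replicates. The libraries held between 15863637 and 18028674 reads on genes, so that 1 read stood for about 0.0555 to 0.063 CPM (reads scaled to the same library total). Strain, age, dose, wound model, days and the place on the body from which each piece was cut are not stated in the labels. Nor do the labels say that the libraries came from separate animals. All intervals are exact 95% intervals that cover counting error only.

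T-box and homeobox proteins bind DNA and switch genes of a region on or off in the embryo. Several stay active in the connective tissue, muscle and skin of that region in the adult. In the mouse, Pitx1 and Tbx4 mark the field of the hindlimb and Tbx5 that of the forelimb. Shox2 acts in the near part of the limb, Tbx2 and Tbx3 along the edges of the limb bud, and En1 in its lower surface and in a fibroblast lineage of back skin. Tbx15 acts in skin of the trunk, fast muscle and fat, and Tbx1 in the pharynx, in head muscle and in the hair follicle.

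The members lie on 6 chromosomes of build GRCm38, with coordinates as the tables give them. Tbx2 (chr11:85832551-85841948) and Tbx4 (chr11:85886422-85916097) are neighbours on the plus strand of chromosome 11, 44473 bases apart. Tbx3 (chr5:119670669-119684724) and Tbx5 (chr5:119832668-119885219) form a like pair on the plus strand of chromosome 5, with 147943 bases between them. On chromosome 3 lie Shox2 (chr3:66971727-66981771, minus strand) and Tbx15 (chr3:99240381-99354259, plus strand). Pitx1 (chr13:55825051-55836192) and Tbx1 (chr16:18580979-18590671) are on the minus strand and En1 (chr1:120602418-120607992) on the plus strand.

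Promoter sequences were found in the RefSeq promoter table (build GRCm38.p6) for 4 members, Tbx4, Shox2, Tbx1 and En1. Those of Tbx1, Tbx4 and Shox2 are shown. Among the 8 members with at least 10 reads in either library, these 3 were at least 2-fold higher in middle C-PC than in late control. That pair of muscle-rich libraries is described further on. Each is the 250 bases before a RefSeq start, written in the direction of transcription, and no base of them lies in an exon of GENCODE release M21. The windows are chr16:18588900-18589149 on the minus strand, 1 of 2 starts of Tbx1 and inside an intron of its longer span; chr11:85896515-85896764 on the plus strand, inside an intron of Tbx4; and chr3:66981772-66982021 on the minus strand, directly before Shox2 and within the span of Rsrc1. Capitals mark matches, on either strand, to any of 4 motifs searched: the T-box half-site AGGTGTGA, the bicoid-type homeodomain site TAATCC, the TATA box TATAAA and the myogenic E-box CAGCTG.

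Tbx1: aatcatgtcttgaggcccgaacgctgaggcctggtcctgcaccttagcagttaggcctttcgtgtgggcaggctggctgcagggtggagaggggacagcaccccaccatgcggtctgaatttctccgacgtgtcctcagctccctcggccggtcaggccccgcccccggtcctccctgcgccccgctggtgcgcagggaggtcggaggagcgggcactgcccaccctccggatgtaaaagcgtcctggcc

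Tbx4: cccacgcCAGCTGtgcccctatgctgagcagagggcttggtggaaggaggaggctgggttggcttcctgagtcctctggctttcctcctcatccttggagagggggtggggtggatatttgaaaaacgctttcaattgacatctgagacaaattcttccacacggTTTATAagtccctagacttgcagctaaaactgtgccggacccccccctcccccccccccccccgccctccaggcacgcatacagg

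Shox2: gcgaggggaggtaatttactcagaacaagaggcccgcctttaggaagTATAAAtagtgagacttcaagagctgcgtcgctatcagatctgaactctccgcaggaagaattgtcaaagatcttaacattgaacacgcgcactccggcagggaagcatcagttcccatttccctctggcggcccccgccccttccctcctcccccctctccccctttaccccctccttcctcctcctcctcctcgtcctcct

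The Tbx4 window held the myogenic E-box 243 bases before the start and the TATA letters on the reverse strand 85 bases before it. The Shox2 window held the TATA letters 203 bases before the start, and the Tbx1 window, with 67.2% G and C, held none of the 4 motifs. No T-box half-site or bicoid-type site was in these 3 windows. Of 32851 promoter windows of 250 bases, 1.12% held the T-box half-site, 6.25% the bicoid-type site, 12.4% the TATA letters and 13.0% the E-box. A match describes the letters only.

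The 6 libraries differed in the tissue that their transcripts mark, as the map of marker lists shows. The skeletal muscle list of 12 genes summed to 134147 CPM in middle C-PC and 129697 CPM in late control, and to between 2064 and 12385 CPM in the other 4 libraries. Although all samples are labelled skin, the epidermal list of 10 genes summed to 4775 CPM in late C-PC and 2336 CPM in middle control, and to between 5.27 and 16.6 CPM in the 4 others. Krt14 and Krt5, the keratins of the basal epidermis, had 0 reads in early control and middle C-PC, and Krt5 had 0 reads in late control. The hair follicle list summed to 44948 CPM in late C-PC, 74.2 CPM in middle control and at most 3.94 CPM in the others. Dermal fibroblast genes were highest in middle control (87351 CPM) and in early C-PC and early control (58704 and 51652 CPM). In such bulk tissue, fewer cells of a type and less RNA per cell cannot be told apart, and how far these differences set the levels of the members was not tested.

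**Figure D1:**
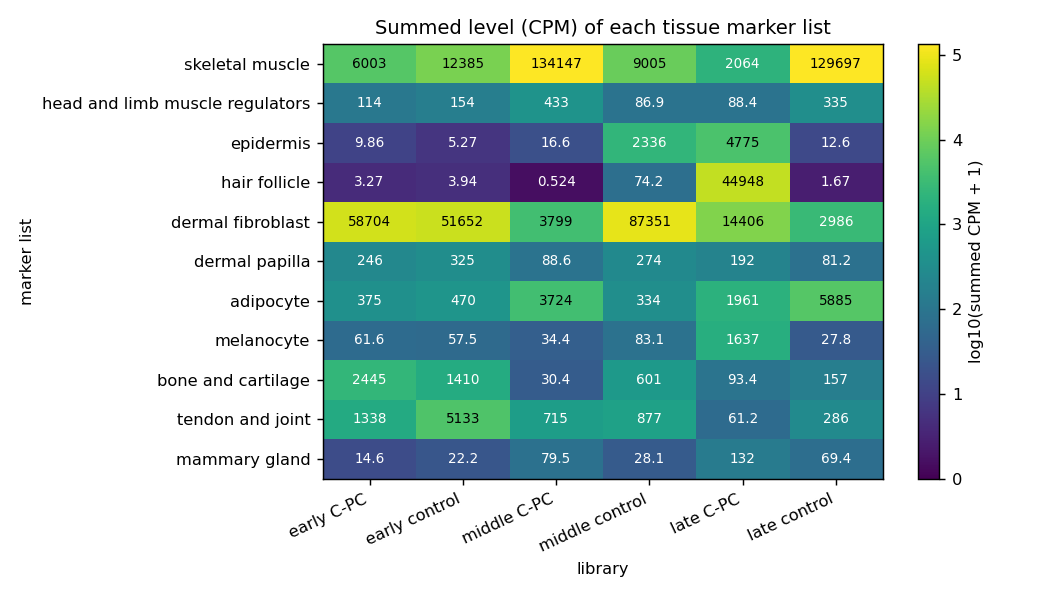
Summed level in CPM of each marker list (rows) in each of the 6 libraries (columns), with colour on a log10 scale of summed CPM plus 1. Middle C-PC and late control carry the muscle lists, and late C-PC the hair follicle and melanocyte lists. The epidermal list is high in late C-PC and in middle control.

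Pitx1, a homeobox gene of the hindlimb field that acts upstream of Tbx4, was low throughout but uneven. At the early stage it stood at 1.72 CPM with C-PC against 0.111 CPM in control, which is 29 against 2 reads. At the middle stage it stood at 0.233 CPM with C-PC against 2.46 CPM in control (4 against 39 reads), and at the late stage at 0.528 against 1.73 CPM (9 against 28 reads). Thus the C-PC library was the high one early, and the control library was the high one at the middle and late stages. The counting intervals of the 3 high libraries overlapped from one to the next in the order of levels, as did those of the 3 low ones. Middle control came first, but after scaling by TMM, edgeR's trimmed mean method, late control did, at 2.32 against 2.25 CPM. Pitx1 overlaps an antisense gene, Gm47071, which had 18, 47, 26, 42, 33 and 6 reads in early C-PC, early control, middle C-PC, middle control, late C-PC and late control. Since the library kit does not mark strand, reads of the overlap cannot be assigned with certainty.

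Tbx4, the T-box gene of the hindlimb field, followed another order. It had 1.66 CPM in early C-PC against 1.05 CPM in early control, 3.72 CPM in middle C-PC against 0.693 CPM in middle control, and 1.88 CPM in late C-PC against 1.11 CPM in late control. Middle C-PC was the high library, with 64 reads and an interval of 2.87 to 4.76 CPM that overlapped none of the others. The remaining 5 libraries, with 11 to 32 reads, overlapped each with its neighbour in the order. The library with the most Tbx4 was thus one of the 3 with the least Pitx1.

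Tbx5, the T-box gene of the forelimb field, was near the limit of detection. It had 9 reads in early C-PC and 0 in early control, 6 in middle C-PC and 4 in middle control, and 1 each in late C-PC and late control. No library reached 10 reads, so no ratio was given for Tbx5, and every neighbour in the order overlapped. At this depth, 0 reads in early control allow a level of up to 0.166 CPM by the limit of 3 reads and 0.205 CPM by the exact interval, and the highest level, in early C-PC, was 0.535 CPM (interval 0.244 to 1.01).

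Shox2, a homeobox gene needed for growth of the upper limb skeleton, stood apart in the early pair. It had 271 reads, or 16.1 CPM, in early C-PC against 24 reads, or 1.33 CPM, in early control. At the middle stage it had 8.20 CPM (141 reads) with C-PC against 6.18 CPM (98 reads) in control, and at the late stage 4.40 against 3.46 CPM. Early C-PC was the highest of the 6 libraries and early control the lowest, and in CPM neither interval overlapped its neighbour. After TMM early C-PC (14.2 CPM) and middle C-PC (11.1 CPM) overlapped, while early control stayed apart. Before TMM the 4 other libraries formed a run in which neighbours overlapped, between 3.46 and 8.20 CPM. After TMM this run broke, with middle C-PC above middle control (5.65 CPM) without overlap. Shox2 lies within the span of Rsrc1 on the opposite strand, and Rsrc1 had 598 reads in early C-PC against 579 in early control, a ratio near equality.

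**Figure D2:**
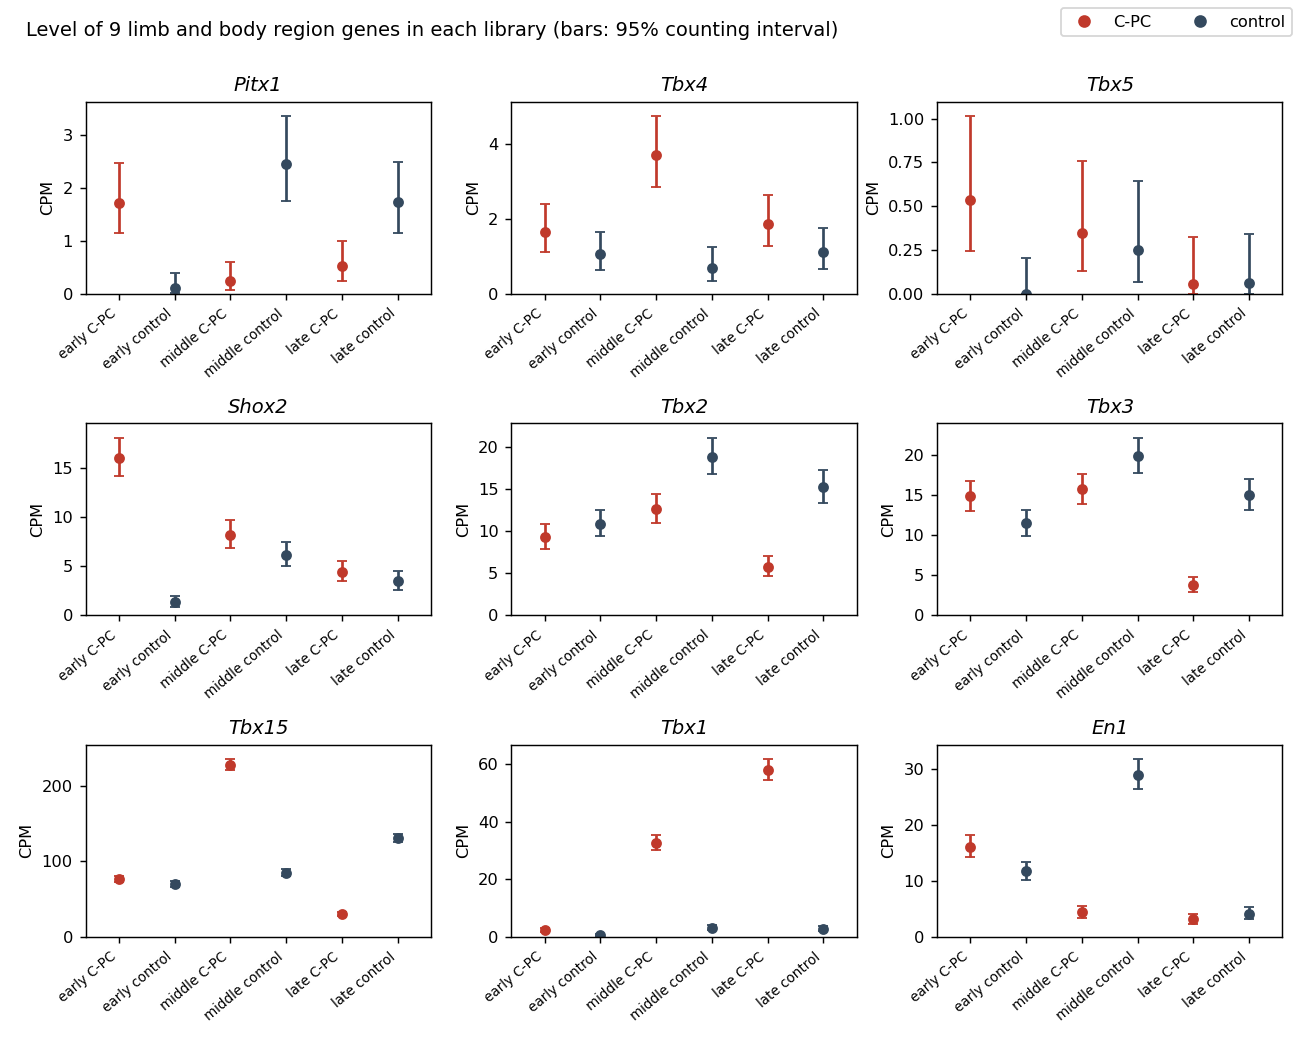
Level in CPM (vertical axes, linear, each from 0) of the 9 members in the 6 libraries, C-PC in red and control in dark blue, with exact 95% counting intervals as bars. Tbx1 is high in middle and late C-PC, Tbx2 and Tbx3 are lowest in late C-PC, and the high libraries of Pitx1 and Tbx4 differ.

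Tbx2 and Tbx3, related repressors that act in limb, breast and heart, had the smallest folds between their highest and lowest library among the 8 members with reads in every library, 3.25 and 5.27, with Tbx4 close behind at 5.37. Tbx2 stood at 9.33 CPM in early C-PC against 10.9 in early control, 12.7 in middle C-PC against 18.9 in middle control, and 5.81 in late C-PC against 15.3 in late control. Tbx3 stood at 14.8 CPM in early C-PC against 11.4 in early control, 15.7 in middle C-PC against 19.8 in middle control, and 3.76 in late C-PC against 14.95 in late control. Late C-PC was the lowest library for each gene, and its interval (4.72 to 7.08 CPM for Tbx2, 2.89 to 4.80 CPM for Tbx3) lay below those of the 5 others, also after TMM. After TMM the middle libraries and late control lay above both early libraries for each gene, without overlap. Their mean-centred log2 levels differed by 0.38 (root mean square over the 6 libraries), the second closest of the 36 pairs of members after Tbx5 with Shox2 at 0.33, which rests on few reads. The first place was held by middle control for each gene, but under TMM scaling by late control for Tbx2 (20.4 CPM, against 17.3 in middle control) and by middle C-PC for Tbx3 (21.1 CPM, against 18.1 in middle control). Tbx3 overlaps the antisense gene Tbx3os1, which had 29 reads in late control and 2 to 13 in the other libraries.

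Tbx15, a gene of trunk skin, fast muscle and fat, was the most abundant member per length of transcript, with a mean over the libraries of 27.6 RPKM (CPM per kilobase), against 4.73 for Tbx1, 4.35 for En1, 3.35 for Tbx2 and at most 2.02 for the 5 others. Its level was 76.9 CPM in early C-PC against 70.3 in early control, 228 in middle C-PC against 84.9 in middle control, and 30.3 in late C-PC against 131 in late control. The 2 muscle-rich libraries were the high ones and late C-PC was the low one. The early libraries and middle control lay together, from 70.3 to 84.9 CPM, with overlapping neighbours, although after TMM middle control lay above early C-PC without overlap. Tbx15 made up 64.7% of the summed CPM of the 14 T-box genes listed in middle C-PC and 57.6% in late control, against 14.4% in late C-PC and 34.3% to 36.7% in the 3 others. Adipocyte genes, like muscle genes, were highest in middle C-PC and late control, with summed levels of 3724 and 5885 CPM against 334 to 1961 CPM elsewhere. An antisense gene that overlaps Tbx15, Gm43120, had at most 3 reads in any library.

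Tbx1, a gene of the pharynx and head muscle that also acts in hair follicle stem cells, was high in 2 libraries of different tissue makeup. It had 2.38 CPM in early C-PC against 0.666 in early control (40 against 12 reads), 32.6 in middle C-PC against 3.21 in middle control (561 against 51 reads), and 58.0 in late C-PC against 2.90 in late control (988 against 47 reads). Late C-PC and middle C-PC stood apart from the 4 low libraries. In CPM they also stood apart from each other, but after TMM they were at 46.2 and 44.0 CPM with overlapping intervals. In late C-PC the high level of Tbx1 stood beside the 44948 CPM of the hair follicle list. In middle C-PC that list summed to 0.524 CPM, with 10 of its 12 genes at 0 reads, and Krt14 and Krt5 of the epidermis were at 0 reads too. The late control, the other muscle-rich library, had 2.90 CPM of Tbx1, but it differs from middle C-PC in stage and treatment too. The part of hair follicle, muscle or any other tissue in the levels of Tbx1 was not tested. Tbx1 overlaps no annotated gene.

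En1, the engrailed homeobox gene of ventral limb surface and of a back skin fibroblast lineage, was high in libraries rich in fibroblast transcripts. It had 16.1 CPM in early C-PC against 11.7 in early control, 4.36 in middle C-PC against 28.9 in middle control, and 3.17 in late C-PC against 4.14 in late control. Middle control was highest, followed by early C-PC and early control, each apart from the next. The 3 low libraries overlapped with their neighbours in CPM, but after TMM late C-PC (2.52 CPM) lay below late control (5.55 CPM) without overlap. The libraries high in En1 were also those high in the dermal fibroblast list, whose sums were 58704 CPM in early C-PC and 51652 in early control, 3799 in middle C-PC and 87351 in middle control, and 14406 in late C-PC and 2986 in late control.

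The members were then compared between the C-PC and the control library of each stage. A gene was called higher or lower where its ratio, taken after adding 2 to each deposited value, was at least 2-fold and the interval excluded equality. Genes needed 10 reads in either library. Tbx5 failed this minimum at each stage, which left 8 members. Over all genes this rule called 9.78% early, 51.7% at the middle stage and 49.4% late, so at the middle and late stages a call is the common outcome. Scaling by total reads in place of the authors' scaling shifted the log2 ratios by a median over genes of -0.02 early, -0.54 at the middle stage and 0.54 late. The share of calls that were higher with C-PC was then 28.2% at the middle stage (45.7% with the authors' scaling) and 72.2% late (53.2%).

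At the early stage 3 of 8 members were called, all higher with C-PC, beside 2.92% of all genes higher and 6.85% lower. The median log2 ratio of the 8 members was 0.55, against 0.00 over all genes. Shox2 had a log2 ratio of 3.51 (3.01 to 4.29), Pitx1 of 3.04 (2.00 to 7.09) and Tbx1 of 1.70 (0.90 to 2.92). Tbx4 (0.63), En1 (0.48), Tbx3 (0.39), Tbx15 (0.15) and Tbx2 (-0.20) were not called. The early C-PC library also held less of the tendon and joint list (1338 against 5133 CPM in control) and of the muscle list (6003 against 12385 CPM). Of 10 bone and cartilage genes, 7 were called lower and 1 higher. Among them Ibsp had 0 CPM with C-PC against 167 CPM in control, while Spp1, a gene of bone and of macrophages, had 2392 against 1060 CPM, so that the list summed to 2445 CPM with C-PC against 1410 CPM in control. The part of these tissues in the early ratios was not tested.

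At the middle stage 5 of 8 members were called, 3 higher and 2 lower with C-PC, beside 23.6% and 28.1% of all genes. The median of the 8 members was 0.57, against -0.13 over all genes. Tbx1 was higher by a log2 ratio of 3.83 (3.47 to 4.33), Tbx4 by 2.73 (2.04 to 4.04) and Tbx15 by 1.97 (1.88 to 2.06). Pitx1 gave -2.42 (-4.80 to -1.39) and En1 -2.16 (-2.56 to -1.83). Shox2 came close to the threshold at 0.94, while Tbx3 (0.20) and Tbx2 (-0.03) were near equality. Under scaling by total reads, Shox2 moved to 0.40 and Tbx3 changed sign to -0.34. Muscle genes summed to 134147 CPM with C-PC against 9005 CPM in control, and fibroblast genes to 3799 against 87351 CPM.

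At the late stage 5 of 8 members were again called, 1 higher and 4 lower with C-PC, beside 26.3% and 23.1% of all genes. The median of the 8 members was -1.41, against 0.15 over all genes. Tbx1 was higher, at 3.73 (3.35 to 4.23). Tbx15 gave -2.65 (-2.80 to -2.52), Tbx3 -2.50 (-2.96 to -2.14), Pitx1 -1.99 (-3.53 to -1.14) and Tbx2 -1.91 (-2.29 to -1.60). En1 (-0.90), Shox2 (-0.20) and Tbx4 (0.19) were not called, and under scaling by total reads Shox2 changed sign to 0.34. Here muscle genes summed to 2064 CPM with C-PC against 129697 CPM in control. Tbx1 was thus called higher with C-PC at all 3 stages, and no other member was called in the same direction at each. Its early call rested on 40 against 12 reads. Of all genes, 2.92% were called higher early, 23.6% at the middle stage and 26.3% late. The share of all genes called higher at all 3 stages was not counted.

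**Figure D3:**
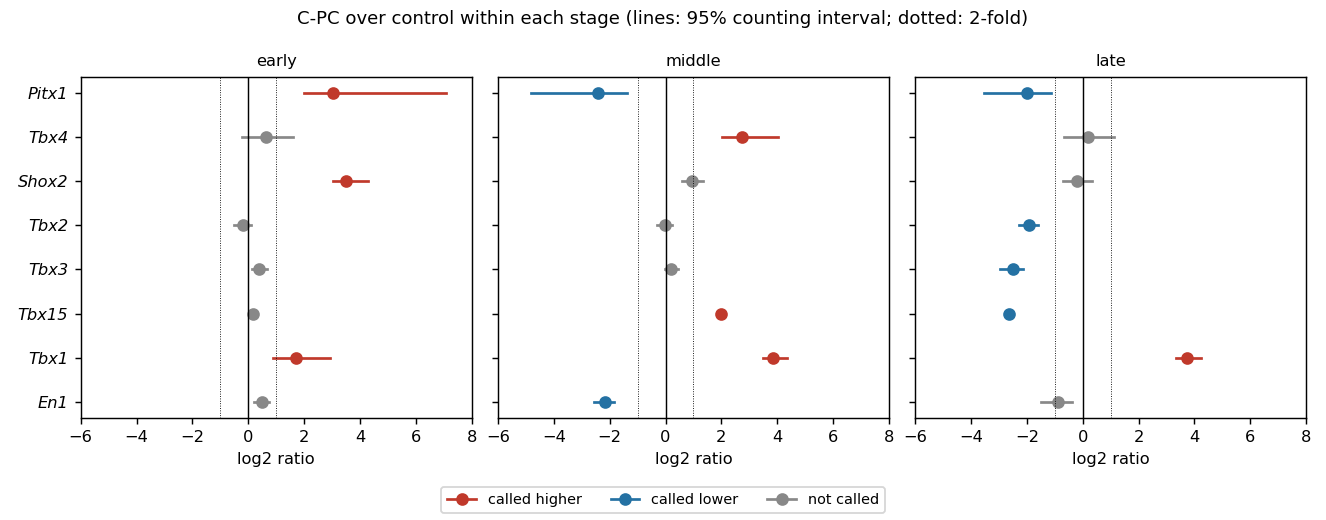
Log2 ratio of C-PC over control for the 8 members with enough reads (rows) at the early, middle and late stage (panels), with 95% counting intervals as lines and 2-fold as dotted lines. Red marks members called higher, blue those called lower and grey the rest, and Tbx1 is red in all 3 panels.

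Because the libraries of a stage differ in tissue, the 2 muscle-rich libraries were also set side by side. Middle C-PC and late control differ in stage as well as in treatment, and these cannot be told apart. After TMM over the 6 libraries, 9.5% of 15269 genes were called between them (4.06% higher and 5.44% lower), and 4 of 8 members, 3 higher and 1 lower. Tbx1 was 11.3-fold higher in middle C-PC (log2 ratio 3.46, interval 3.07 to 3.96), Tbx4 3.37-fold higher (1.67, 0.98 to 2.59) and Shox2 2.39-fold higher (1.23, 0.80 to 1.73). These folds were taken before 2 was added to each scaled value, and the log2 ratios after it. Pitx1 was lower, with 4 reads in middle C-PC against 28 in late control (-2.49, -4.86 to -1.37). Tbx15 gave 0.81, En1 0.08, Tbx3 0.07 and Tbx2 -0.26, and none of these was called. These libraries were not alike in every tissue list. Of 8 tendon and joint genes 6 were called higher in middle C-PC (median 1.50), and of 9 bone and cartilage genes 7 were called lower (median -1.61). Adipocyte genes were called lower in 4 of 9 cases (median -0.91). Of 12 muscle genes 1 was called higher, Myod1 (1.41), and of 9 muscle regulators 2, Myf5 (1.55) and Pax7 (1.21), these 3 being named after their values were seen. Their part in the ratios of Tbx1, Tbx4 and Shox2 was not tested. Values near equality were found for the muscle genes Myh4 (0.05) and Ckm (0.00 after rounding), and for Hoxc10, a Hox gene of the lower trunk and hindlimb (-0.06). Other genes of these lists lay farther off, as Myh1 (0.54) and Actn3 (-0.35) of muscle. Of 20 Hox genes Hoxd10 (1.25) was called higher and Hoxc8 (-1.21) lower, and of 15 limb patterning genes 2 were called higher and 3 lower. Myh1, Actn3, Hoxd10 and Hoxc8 were named after their values were seen.

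The libraries with epidermal transcripts, late C-PC and middle control, were set side by side in the same way. Of 16714 genes, 38.3% were called between them (13.8% higher and 24.6% lower), and 7 of 8 members, 2 higher and 5 lower. Tbx1 was 15.7-fold higher in late C-PC (3.92, 3.57 to 4.41), and Tbx4 was 2.36-fold higher (1.10, 0.21 to 2.37). Here too the folds were taken before 2 was added to each scaled value, and the log2 ratios after it. En1 (-3.33), Tbx3 (-2.55), Pitx1 (-2.13), Tbx2 (-1.88) and Tbx15 (-1.68) were called lower, and Shox2 (-0.67) was not called. The late C-PC library held 14406 CPM of the fibroblast list against 87351 CPM in middle control, and 44948 CPM of the hair follicle list against 74.2 CPM. Stage and treatment again cannot be told apart.

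**Figure D4:**
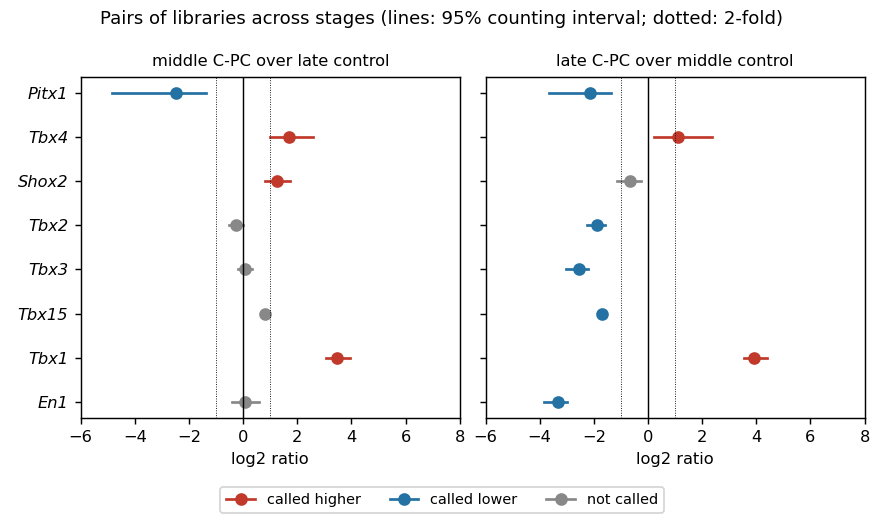
Log2 ratio after TMM for 8 members (rows) in the muscle-rich pair (left panel, middle C-PC over late control) and the epidermis-bearing pair (right panel, late C-PC over middle control), with 95% counting intervals as lines and 2-fold as dotted lines. Tbx1 and Tbx4 are called higher and Pitx1 lower in the C-PC library of each pair.

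Other genes of the same families and programmes were counted from lists chosen with earlier results known. Of 8 further T-box genes listed in the tables, 5 were compared at the early and middle stages and 4 late. Early, Tbx20 (1 against 13 reads) and Eomes (1 against 10), named after their values were seen, were called lower with C-PC. At the middle stage Tbx6 (10 against 2 reads) was called higher, and Tbx18 (53 against 257) and Eomes (1 against 16) lower. Late, none was called. Of all genes 9.78% were called early, 51.7% at the middle stage and 49.4% late. The calls of Tbx20, Eomes and Tbx6 rest on few reads. Tbx18, a gene of mesenchyme and pericytes, stood at 22.3 CPM in early C-PC against 16.7 in early control, 3.08 in middle C-PC against 16.2 in middle control, and 3.29 in late C-PC against 2.10 in late control. Like En1, it was low in the muscle-rich libraries and in late C-PC. Mga, a large T-box protein of many cell types, was not called at any stage.

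Limb patterning genes followed a mixed course. Of 18 compared early, 2 were called higher and 2 lower with C-PC, beside 2.92% and 6.85% of all genes. At the middle stage 3 of 19 were higher and 10 lower, beside 23.6% and 28.1% of all genes. The median of the 19 was -1.01 (log2), against -0.13 over all genes. At the late stage 11 of 20 were higher and 2 lower, beside 26.3% and 23.1% of all genes. The median of the 20 was 1.18, against 0.15 over all genes. Prrx1, a homeobox gene of limb and dermal mesenchyme, stood at 79.4 CPM in middle C-PC against 349 in middle control (-1.59, -1.68 to -1.50). Gli3, a mediator of hedgehog signals, gave -2.47 at the middle and 3.28 at the late stage. Shh, the hedgehog signal of the limb bud and also of the hair follicle, had 28 reads in early C-PC and 0 in early control, 0 in both middle libraries, and 361 in late C-PC against 4 in late control. Fgf10, a limb bud growth factor downstream of Tbx4 and Tbx5 in the mouse, was not called at any stage, at 2.38 to 9.45 CPM.

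Paired, engrailed and head homeobox genes were called in each direction. Early, 2 of 14 were higher and 5 lower with C-PC, beside 2.92% and 6.85% of all genes. At the middle stage 6 of 13 were higher and 4 lower, beside 23.6% and 28.1%. Late, 6 of 16 were higher and 8 lower, beside 26.3% and 23.1%. Pitx3, a relative of Pitx1 that acts in muscle and in the eye, had 198 reads in middle C-PC against 15 in middle control, and 18 in late C-PC against 82 in late control. En2, the relative of En1, had 20 reads in middle C-PC against 6 in middle control, 0 in late C-PC against 35 in late control, and 0 in both early libraries. Pitx3, En2, Shh and Fgf10 were named after their values were seen. Six4, which acts in muscle precursors, was called higher at the middle stage (2.79) and lower late (-3.70), and Dlx3, a gene of the hair follicle, gave 11.3 late (10.3 to 18.0).

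The Hox genes of the middle and posterior clusters, a fuller sign of position along the trunk, were counted as well. With C-PC 1 of 21 was higher and 2 lower early, beside 2.92% and 6.85% of all genes. At the middle stage 14 of 22 were higher and 3 lower, beside 23.6% and 28.1%. Late, 6 of 22 were higher and 12 lower, beside 26.3% and 23.1%. Hoxc10 stood at 20.7 CPM in early C-PC against 19.5 in early control, 64.1 in middle C-PC against 10.6 in middle control, and 3.93 in late C-PC against 67.4 in late control. Hoxd8 gave 1.22 at the middle stage and -1.88 late, and Hoxc13, a regulator of hair keratins, had 3730 reads in late C-PC, 16 in middle control and 0 in the other 4 libraries. In the muscle-rich pair, middle C-PC and late control, 1 of 20 Hox genes was called higher (Hoxd10) and 1 lower (Hoxc8). The shares of all genes called in that pair were 4.06% higher and 5.44% lower, so the Hox genes were called about as often as others.

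Genes with the pattern most like each member were sought among 13508 coding genes that averaged 1 CPM or more, by the root mean square difference of mean-centred log2(CPM + 0.1) over the 6 libraries. Tbx2 came closest to any gene, at 0.095 from Ttc28. Tbx15 lay 0.105 from Tef, a clock-controlled transcription factor, and 0.174 from Flt1, a receptor of vascular growth factors. Tbx3 lay 0.171 from Pdgfb, a platelet growth factor gene, and En1 lay 0.193 from Tenm3, a teneurin of cell surfaces. Tbx4 lay 0.274 from Pcolce2, an enhancer of collagen processing. The closest genes to Shox2 (Rps27rt, 0.755), Tbx1 (Cntfr, 0.841) and Pitx1 (Gata6, 0.877) were farther off. With 6 libraries of differing tissue, such likeness describes the libraries.

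As a background for the treatment over the stages, limma was fitted across 15588 genes on the log2 scale, with a pseudocount of 2 and stage as block. No gene passed an adjusted p of 0.05 (0 called, 0% of those tested), and 118 had an unadjusted p under 0.05. edgeR's quasi-likelihood test on the recovered reads also called 0 genes, with 98 at an unadjusted p under 0.05. The members were not read from this fit, since they were chosen on the same libraries.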

How the data were processed

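The authors deposited 3 tables, 1 per stage, whose values are a signal: read counts rescaled so that the C-PC and the control library of a table compare, as worked out from the values. Columns of log2 fold change and of p-value, raw and adjusted, were deposited by the authors too and were not used here. Each value is a whole multiple of 1 step, and 100% gave whole reads within 0.1 read, so counts were recovered from the deposited values. Aligner, counter and annotation were not given in the sources available; per the submitters' processing notes the build is hg38, a human build, while genes and coordinates are of mouse, and 97.2% of 26644 genes have the GENCODE M21 (GRCm38) coordinates. Per the labels' protocols the library kit is one that does not mark strand.

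CPM are recovered reads over total reads on genes, with Poisson intervals. Ratios within a stage use deposited values plus a pseudocount of 2, with conditional binomial intervals, which understates changes of low genes; pairs across stages use TMM, since tables were scaled separately. Each table lists genes from 2 reads up in its pair of libraries, and 19360 genes are in all tables. Calls need 2-fold, at least 10 reads and an interval excluding equality; nothing says that libraries came from separate animals. limma 3.58.1 (trend, robust, Benjamini-Hochberg, 2 residual degrees of freedom) and edgeR 4.0.16 were fitted with stage as block and tested on simulated data; DESeq2 1.42.0 gave size factors. Python 3.11.15 and scipy 1.17.1 did the rest. Members and lists were chosen with earlier results of these data known. Named genes are the 9 members, up to 3 most abundant genes of a list, the 3 most alike in pattern, and up to 3 defining markers of a tissue; others are marked, and some genes the rule names are not reported here.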

Additional observations from a re-analysis of the deposited data

Results flagged for a closer look

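Pitx1 was called in opposite directions at different stages, with log2 ratios of C-PC over control of 3.04 early, -2.42 at the middle stage and -1.99 late. These rest on 29 against 2, 4 against 39 and 9 against 28 reads. Tbx15 was called higher at the middle stage (1.97) and lower late (-2.65). With 1 library per treatment and stage the difference between stages was not tested for either gene.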

How the results depend on the processing

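The number of members called was 3 early, 5 at the middle stage and 5 late, and moved by over 1.5 times only late under a 4-fold threshold, to 3. Fold thresholds, pseudocount, scaling and read minimum otherwise left it within that range. Of 24 log2 ratios of members, 24 stayed within their counting interval with a pseudocount of 0.5, and 12 moved outside it under scaling by total reads, although no called one changed sign. With CPM after TMM, 5 of 9 members kept the same highest library (Pitx1, Tbx2, Tbx3 and Tbx5 did not). For the C-PC effect over the stages, limma with stage as replicate block called 0 genes (118 at an unadjusted p under 0.05), and edgeR with that block 0 (98). Without the block limma called 0, and leaving out the early, middle or late pair gave 0 to 0. The pairs across stages, with alternatives chosen after seeing the data, gave 4 and 7 members throughout. Depth limits Tbx5 at every stage and Pitx1 in early control and middle C-PC.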

Other observations

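Reads were also counted for coding genes that neighbour the members. Wars2, which lies 1195 bases from Tbx15, had 185 reads in early C-PC against 208 in early control, 171 in middle C-PC against 215 in middle control, and 195 in late C-PC against 121 in late control. Gnb1l, the coding gene nearest to Tbx1, had 29 reads in middle C-PC against 63 in middle control and 135 in late C-PC against 38 in late control. Marco, a scavenger receptor of macrophages 97394 bases from En1, had 302 reads in early C-PC against 93 in early control, 2 in middle C-PC against 121 in middle control, and 74 in late C-PC against 3 in late control. Bcas3, beside Tbx2, had 512 reads in late C-PC against 402 in late control.

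Head and limb muscle regulators gave a further view of the muscle-rich libraries. Lbx1, a gene of migrating limb muscle precursors, stood at 84.3 CPM in middle C-PC and 56.3 CPM in late control. Msc, a gene of head muscle, stood at 1.22 and 1.17 CPM in the same libraries, and Tcf21, another, had 0 reads in middle C-PC and 3 in late control. The neighbours and these 3 genes were named after their values were seen.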
